A study of Homo sapiens with 6 samples.

Results

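The mitochondrial ribosomal proteins were examined through the 75 gene symbols that begin with MRPL or MRPS followed by a digit, among 11048 symbols with a value in every library. Of these genes, 50 encode proteins of the large ribosomal subunit and 24 encode proteins of the small subunit. MRPS18A and MRPS30 were counted with the large subunit, where structures of the human mitochondrial ribosome place their products. MRPS36 carries a ribosomal name, but its product is an adaptor of the alpha-ketoglutarate dehydrogenase complex, and it was counted with neither subunit. The genes MRPL58, MRPS18B and MRPS24 were not analysed here.

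Mitochondria hold their own ribosomes, which translate the few proteins that mitochondrial DNA encodes, all of them components of oxidative phosphorylation. The ribosomal RNAs come from mitochondrial DNA, whereas every ribosomal protein is encoded in the nucleus, made in the cytosol and imported. Some of these proteins have counterparts in bacterial ribosomes, and others are found in mitochondria only.

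The mRNA came from MM1.S, a human multiple myeloma cell line, which is a plasma cell malignancy. Cells were exposed for 6 h to the vehicle DMSO, to 3 µM CCF642 or to 3 µM of its analog CCF642-34, and each of these 3 groups was measured in 2 libraries. Both compounds inhibit protein disulfide isomerases, the enzymes that form and rearrange disulfide bonds in the endoplasmic reticulum. The labels do not say that libraries of a group came from separate cultures, so p-values measure the spread between these libraries, which may be technical. The spread used for each gene came mostly from genes of similar level (42.9 prior and 3 residual degrees of freedom). A small p-value therefore does not show that the 2 libraries of a group lay close together for that gene.

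The libraries held between 20567313 and 28459677 reads. All 8 plasma cell markers examined had a row, at 27.5 to 1391 CPM (reads of a gene scaled to a common library total), whereas 4 of 10 markers of T cells, monocytes, epithelium and fibroblasts had one, at 0.221 to 10.5 CPM. Every one of the 75 genes was tested, and the reads behind a single value ran from 148 for MRPS18C to 5366 for MRPL37. The values of single genes below are CPM divided by the TMM factor of the library, which was 1.05 in both DMSO libraries and 0.957 to 0.992 in the others, and fold changes are on the log2(TMM-scaled CPM + 1) scale.

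Transcript lengths are medians over the annotated transcripts of each gene, which need not be the ones expressed. Per length so taken, the DMSO cells held most mRNA of MRPL49, at 169 CPM per kilobase of transcript. It was followed by MRPS34 at 147, MRPL51 at 137, MRPL12 at 136 and MRPL37 at 125. MRPL49 is a mitochondria-specific protein of the large subunit, and MRPL12 forms the stalk that receives the translation factors. The lowest levels per length were those of MRPS17 at 6.73, MRPL50 at 7.67 and MRPL22 at 9.18 CPM per kilobase. MRPL49 and MRPL50 were named after their values were seen. This order depends on the lengths, which were 509.5 bases for MRPL49, 3332 for MRPL50 and 3098.5 for MRPL22. Without division by length, the mean DMSO CPM was 86.3 for MRPL49 and ran from 8.17 for MRPS18C to 186 for MRPL37. Messages for proteins that enter the same particle spanned a wide range of levels either way.

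With CCF642, more mRNAs of the mitochondrial ribosome fell than rose, and those that fell lost at most 39.5% of their level. Of the 75 genes, 33 were lower than with DMSO and 14 were higher at an adjusted p under 0.05 (limma), while 28 passed in neither direction. Over all genes tested, 31.3% were lower and 31.8% were higher in this comparison, so the falling share of the ribosomal genes (44%) stood above the background and the rising share (18.7%) below it. Their median log2 fold change was -0.12, beside -0.0066 over all genes. Scaling by library size alone, which put the median of all genes at -0.13, gave 45 lower, 10 higher and a median of -0.25. When some single libraries were left out, fewer of the ribosomal genes were called lower, while their median stayed negative, as given at the end. In the bulk RNA of a culture, fewer cells of a kind and less RNA per cell cannot be told apart.

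With CCF642-34 there was no such shift. In this group 20 of the genes were higher than with DMSO, 15 were lower and 40 passed in neither direction, beside 29.7% higher and 27.9% lower of all genes. The median was 0.03, beside 0.0067 over all genes, and its sign was not stable: under scaling by library size alone it was -0.06, with 13 higher and 23 lower, where the median of all genes was itself -0.08. Without the second DMSO library, 9 of the genes were lower. No mitochondrial ribosomal gene changed 2-fold with either compound, whereas 6.49% of all genes did so with CCF642 and 3.87% with CCF642-34 at an unadjusted p under 0.05. The comparisons with each compound share the DMSO libraries, so their values are given side by side below.

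**Figure D1:**
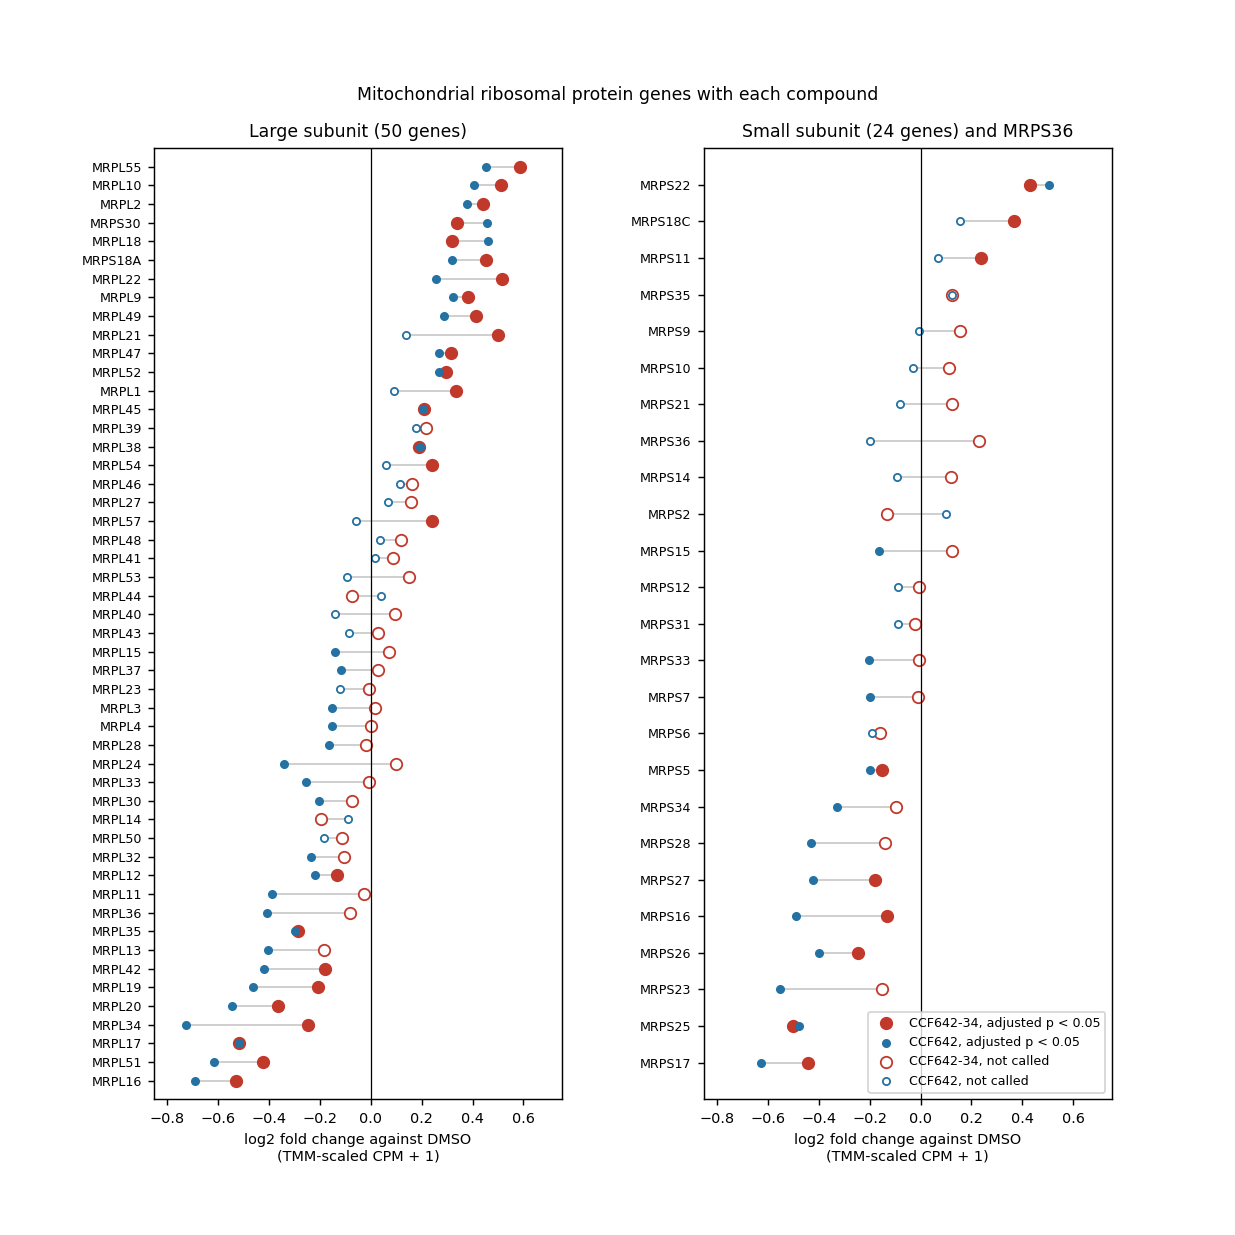
Fitted log2 fold change against DMSO (horizontal axis) of each of the 75 genes (vertical axis), in separate panels for the 50 large subunit genes and the others. Each gene has a point for each compound, filled where the adjusted p was under 0.05. Values range from -0.72 (MRPL34 with CCF642) to 0.59 (MRPL55 with CCF642-34), and most points for CCF642 lie to the left of those for CCF642-34.

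Among the genes that rose, MRPL55 showed the largest increase with CCF642-34. Its TMM-scaled CPM was 45.7 and 44.6 with DMSO, 61.9 and 62.3 with CCF642 and 66.7 and 69.8 with CCF642-34. The 3 groups did not overlap, and both compounds gave higher values than DMSO. The log2 fold change was 0.59 with CCF642-34 (SE 0.064, limma adjusted p = 7.29e-11) and 0.45 with CCF642 (adjusted p = 3.89e-08).

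MRPL10, which anchors the stalk of the large subunit, measured 39.4 and 40.2 CPM with DMSO, 53.0 and 53.0 with CCF642, and 55.0 and 59.6 with CCF642-34. Again no library of a treated group reached down to the DMSO values. The increase was 0.51 with CCF642-34 (limma adjusted p = 1.21e-08) and 0.40 with CCF642 (adjusted p = 1.56e-06). The 2 other stalk proteins did not follow it. MRPL12, which binds to MRPL10, fell from 132.5 and 146 CPM to 119.7 and 119 with CCF642 (log2 fold change -0.22, limma adjusted p = 0.000365), while the CCF642-34 libraries, at 132 and 122, lay just below the DMSO values (-0.13, adjusted p = 0.0318). That last call was lost when the second DMSO library (-0.06) or the second CCF642-34 library (-0.07) was left out. MRPL11, at the base of the stalk, fell with CCF642 from 52.1 and 54.0 to 37.5 and 43.4 CPM (-0.39, limma adjusted p = 7.66e-06), and measured 51.9 and 52.4 with CCF642-34 (-0.03, adjusted p = 0.787). Its CCF642-34 and DMSO libraries overlapped.

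MRPS22, a mitochondria-specific protein of the small subunit, measured 34.5 and 31.4 CPM with DMSO, 46.5 and 47.6 with CCF642 and 44.3 and 45.1 with CCF642-34. Of the 24 small subunit genes with an MRP symbol, it was the 1 gene that was higher with CCF642 (log2 fold change 0.50, SE 0.074, limma adjusted p = 7.85e-08), and it also rose with CCF642-34 (0.43, adjusted p = 2.43e-06). MRPS30 rose from 50.7 and 52.4 CPM to 68.2 and 74.1 with CCF642 (0.46, limma adjusted p = 2.37e-08) and to 65.6 and 65.3 with CCF642-34 (0.34, adjusted p = 1.09e-05). MRPL18, whose bacterial counterpart binds ribosomal RNA in the central protuberance, rose from 40.2 and 38.7 to 58.8 and 50.7 with CCF642 (0.46, limma adjusted p = 3.61e-07) and to 48.6 and 50.5 with CCF642-34 (0.32, adjusted p = 0.000178). In these 3 genes the larger fitted increase was that with CCF642, but none of the 3 direct differences between the compounds passed the test (limma adjusted p of 0.478, 0.159 and 0.141).

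MRPL2, which lies close to the catalytic centre of the large subunit, rose from 36.1 and 39.8 CPM to 53.6 and 45.9 with CCF642 (log2 fold change 0.38, limma adjusted p = 2.09e-05) and to 52.5 and 51.2 with CCF642-34 (0.44, adjusted p = 1.81e-06). MRPL22 lines the tunnel through which the nascent chain leaves. It measured 29.7 and 27.2 with DMSO, 35.7 and 32.7 with CCF642 (0.26, limma adjusted p = 0.00662) and 44.3 and 38.0 with CCF642-34 (0.51, adjusted p = 7.56e-07). The CCF642 call for MRPL22 was lost under scaling by library size (0.13) and without the second DMSO library (0.19) or the first CCF642 library (0.19). For MRPL21, a large subunit protein with a bacterial counterpart, the DMSO libraries held 27.7 and 28.5 CPM, the CCF642 libraries 34.4 and 28.0, and the CCF642-34 libraries 41.0 and 39.3. Only the CCF642-34 values were clear of DMSO (0.50, limma adjusted p = 2.15e-06), while those of CCF642 overlapped it (0.14, 95% interval -0.03 to 0.31). The CCF642 libraries of MRPL21 lay far apart, and without the second of them its fold change was 0.28 and passed the test.

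The S18 family has paralogs in both subunits. MRPS18A, of the large subunit, measured 40.7 and 38.3 CPM with DMSO, 45.9 and 53.5 with CCF642 (log2 fold change 0.32, limma adjusted p = 0.000184) and 55.9 and 53.0 with CCF642-34 (0.45, adjusted p = 7.25e-07). MRPS18C, of the small subunit, had the fewest reads of all, at 8.67 and 7.68 CPM with DMSO, 7.48 and 11.2 with CCF642 and 11.5 and 10.1 with CCF642-34. Its CCF642 libraries lay on both sides of the DMSO libraries (0.15, limma adjusted p = 0.355). Its increase with CCF642-34 (0.37, limma adjusted p = 0.0246) was lost when the second DMSO library (0.29) or the first CCF642-34 library (0.28) was left out.

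Among the genes that fell, MRPL16, a core protein near the catalytic centre, measured 66.0 and 66.9 CPM with DMSO, 41.4 and 40.1 with CCF642 and 44.3 and 47.2 with CCF642-34. Both treated groups were far below DMSO, and those with CCF642 lay lowest. The log2 fold change was -0.69 with CCF642 (SE 0.068, limma adjusted p = 2.3e-12) and -0.53 with CCF642-34 (adjusted p = 4.72e-09). MRPL34 showed the largest fall with CCF642, from 56.8 and 56.5 CPM to 39.7 and 28.9 (-0.72, limma adjusted p = 3.37e-10). With CCF642-34 it measured 49.9 and 45.3 CPM (-0.25, adjusted p = 0.0118), a call that was lost without the second CCF642-34 library (-0.18).

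MRPL51 measured 73.6 and 77.7 CPM with DMSO, 56.4 and 42.6 with CCF642 and 57.6 and 54.5 with CCF642-34, with log2 fold changes of -0.61 (limma adjusted p = 1.53e-09) and -0.42 (adjusted p = 5.43e-06). MRPL20, whose bacterial counterpart is needed for assembly of the large subunit, fell from 53.2 and 52.9 CPM to 33.4 and 38.9 with CCF642 (-0.55, limma adjusted p = 1.63e-08) and to 40.7 and 41.1 with CCF642-34 (-0.37, adjusted p = 4.37e-05). For MRPL17 the falls were of nearly equal size. It measured 37.5 and 41.2 CPM with DMSO, 30.6 and 24.1 with CCF642 (-0.52, limma adjusted p = 2.06e-06) and 27.2 in both CCF642-34 libraries (-0.52, adjusted p = 2.61e-06).

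In the small subunit, MRPS25 fell from 88.5 and 85.9 CPM to 65.2 and 59.6 with CCF642 (log2 fold change -0.48, limma adjusted p = 3.59e-09) and to 60.5 and 62.1 with CCF642-34 (-0.50, adjusted p = 1.39e-09). MRPS17 measured 12.5 and 12.3 with DMSO, 7.98 and 7.40 with CCF642 (-0.63, limma adjusted p = 4.32e-05) and 8.15 and 9.69 with CCF642-34 (-0.44, adjusted p = 0.0033). In both genes all 4 treated libraries lay below both DMSO libraries. The CCF642-34 call for MRPS17 was lost without the first CCF642-34 library (-0.33). MRPS23 measured 34.9 and 38.2 CPM with DMSO, 27.3 and 22.1 with CCF642 (-0.55, limma adjusted p = 4.24e-07) and 32.4 and 33.1 with CCF642-34 (-0.15, adjusted p = 0.137).

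**Figure D2:**
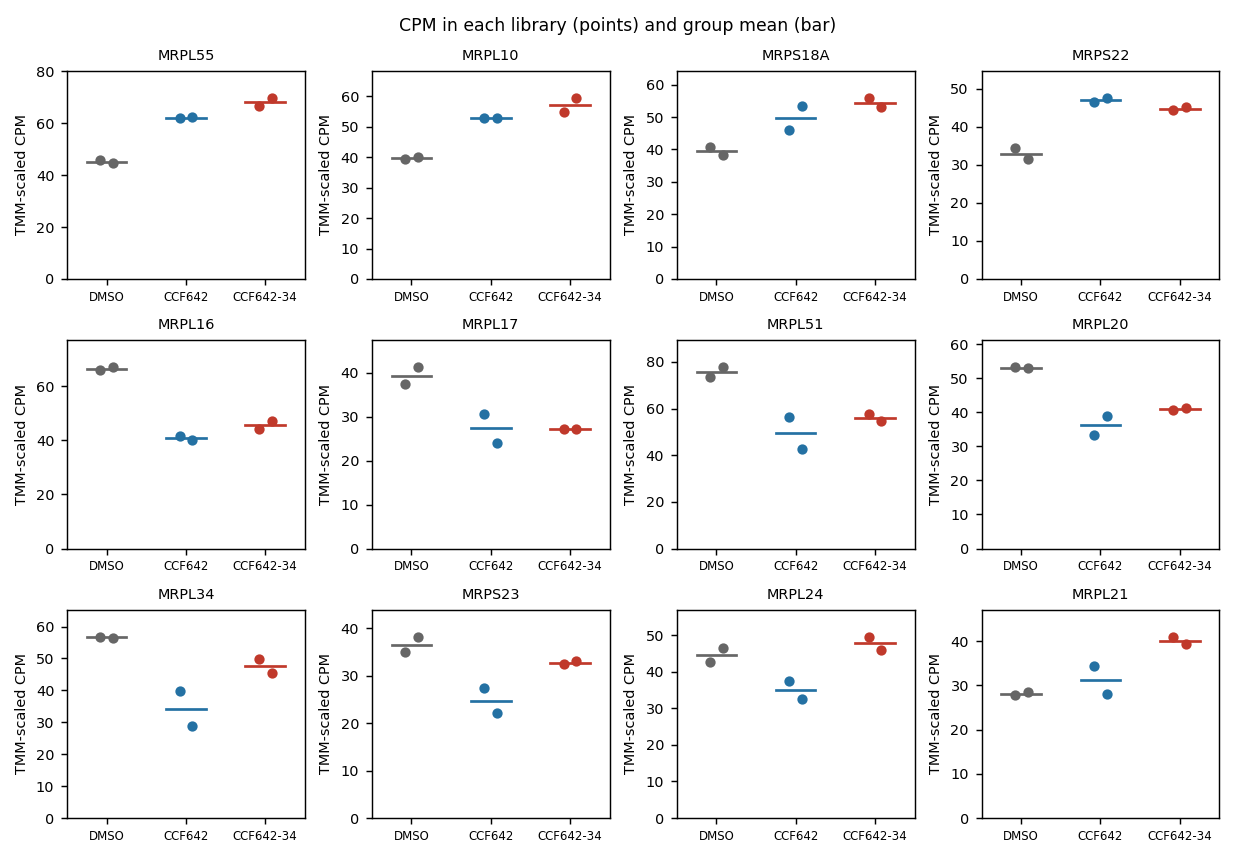
TMM-scaled CPM (vertical axes, from 0) of 12 of the genes in each of the 6 libraries, by group (horizontal axes). Points are single libraries and bars are group means of 2 libraries. MRPL55, MRPL10, MRPS18A and MRPS22 lie above DMSO in all 4 treated libraries, MRPL16, MRPL17, MRPL51 and MRPL20 lie below it in all 4, and MRPL34, MRPS23, MRPL24 and MRPL21 show CCF642-34 above CCF642.

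The upstream sequences of 6 of these genes, 3 that rose and 3 that fell with both compounds, are shown because the letters bound by factors that regulate nuclear genes for mitochondrial proteins could be read in them. They were taken as the genes with the largest mean change whose first 120 bases upstream of the RefSeq start hold a complete match, and they are printed 5′ to 3′ on the strand of the gene (RefSeq, GRCh38.p14). Capitals mark CCGGAAG, the core bound by ETS factors such as GABP, and GCGCATGCG, the core bound by NRF1, each searched on both strands. On the opposite strand these read CTTCCGG and CGCATGCGC, and in MRPL17 a pair of NRF1 matches overlaps.
MRPS22, chr3:139343874-139343993, plus strand: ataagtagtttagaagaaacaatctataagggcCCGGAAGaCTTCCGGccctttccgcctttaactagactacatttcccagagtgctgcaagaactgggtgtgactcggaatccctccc
MRPS18A, chr6:43687792-43687911, minus strand: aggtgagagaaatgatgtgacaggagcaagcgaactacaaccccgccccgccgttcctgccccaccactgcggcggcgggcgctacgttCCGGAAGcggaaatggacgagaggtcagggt
MRPL22, chr5:154940953-154941072, plus strand: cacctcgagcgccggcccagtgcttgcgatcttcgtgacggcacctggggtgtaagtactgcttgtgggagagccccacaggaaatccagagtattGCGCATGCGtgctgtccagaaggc
MRPL51, chr12:6493263-6493382, minus strand: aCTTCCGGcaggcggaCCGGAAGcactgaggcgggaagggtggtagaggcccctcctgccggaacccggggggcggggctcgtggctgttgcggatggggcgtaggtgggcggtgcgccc
MRPL17, chr11:6683341-6683460, minus strand: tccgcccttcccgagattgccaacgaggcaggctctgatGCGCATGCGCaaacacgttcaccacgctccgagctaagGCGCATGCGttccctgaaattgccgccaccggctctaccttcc
MRPL20, chr1:1407294-1407413, minus strand: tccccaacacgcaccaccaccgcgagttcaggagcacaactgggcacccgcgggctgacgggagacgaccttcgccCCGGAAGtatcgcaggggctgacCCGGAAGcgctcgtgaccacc
Downstream of the start, 4 of the 6 genes held AAGATGGC, the core bound by YY1, which is in capitals within the 24 bases around it for 3 of them.
MRPS18A, chr6:43687767-43687790, minus strand: ggtttttgAAGATGGCggccctca
MRPL51, chr12:6493226-6493249, minus strand: taaggcccAAGATGGCtgtcttcg
MRPL20, chr1:1407263-1407286, minus strand: acccgggcAAGATGGCagcggcgc
The first capital of these sites was base 10 of the transcript in MRPS18A, base 22 in MRPL51 and base 16 in MRPL20, and in MRPL22, which is not printed, it was base 36.

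Promoter windows from 250 bases before to 50 bases after the start were found for 66 of the 75 genes. The ETS letters CCGGAAG occurred in 28 of them (42.4%), against 20.2% of the windows of all genes measured and 10.3% of all 35116 windows in the table. The YY1 letters AAGATGGC occurred in 18 (27.3%), against 5.83% and 2.89%. The NRF1 letters GCGCATGCG occurred in 3 (4.55%, against 3.83% and 1.92%) and the E-box CACGTG in 6 (9.09%, against 10.4% and 7.26%). The cyclic AMP response element TGACGTCA was found in 0 of the 66 windows, against 3.38% and 1.85%. By direction with CCF642, the ETS letters occurred in 41.7% of the windows of genes that rose, 41.4% of those that fell and 44% of those that passed in neither direction. The YY1 letters occurred in 7 of 12 windows of genes that rose (58.3%), in 24.1% of those that fell and in 16% of the rest. The E-box occurred in 3 of 12 (25%), 2 of 29 (6.9%) and 1 of 25 (4%). By direction with CCF642-34, the ETS letters occurred in 41.2%, 35.7% and 45.7%, the YY1 letters in 41.2%, 28.6% and 20%, and the E-box in 4 of 17 windows of genes that rose (23.5%), in 0 of 14 of those that fell and in 5.71% of the rest. These shares were not tested, and a match is not a bound site.

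Compared directly at the same dose and time, the pair of compounds differed in mitochondrial ribosomal mRNA mainly in 1 direction. With CCF642-34, 28 of the 75 genes were higher than with CCF642 and 1 was lower (limma, adjusted p under 0.05), beside 15.9% higher and 17.4% lower of all genes. The DESeq2 test on recovered reads kept 19 of these 29 calls. The median log2 difference was 0.15, beside 0.0093 over all genes, and 66 of the 75 fitted differences were above 0, beside 5723 of 11048 over all genes. No gene differed 2-fold, as 0.308% of all genes did. The count depended on single libraries: it was 15 without the first CCF642-34 library and 17 without the second.

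**Figure D3:**
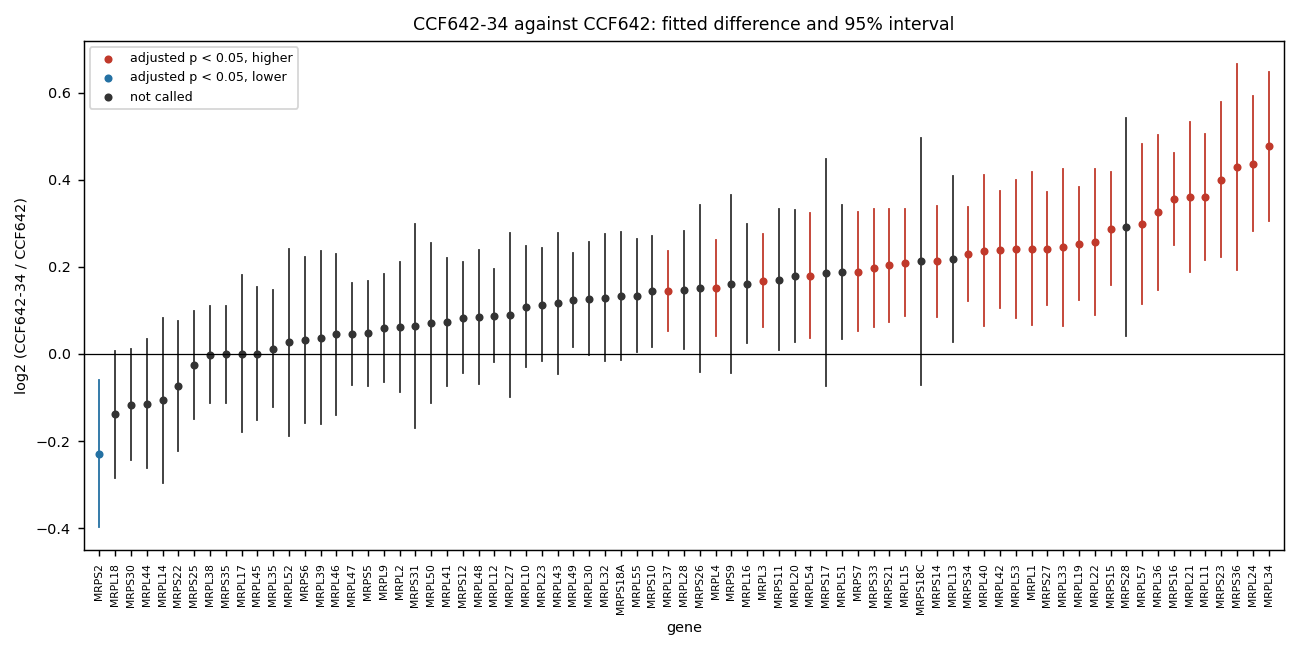
Fitted log2 difference between CCF642-34 and CCF642 (vertical axis) for each of the 75 genes in order of size (horizontal axis), with 95% intervals from limma. The 28 genes that were higher with CCF642-34 run from 0.15 to 0.48, and MRPS2, at -0.23, was the gene called lower.

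The largest direct differences were those of MRPL34, MRPL24, MRPS36, MRPS23, MRPL11 and MRPL21. The lowest CCF642-34 library of MRPL34 (45.3 CPM) lay above the highest CCF642 library (39.7), with a difference of 0.48 (SE 0.085, limma adjusted p = 1.65e-05). MRPL24, at the exit of the nascent chain tunnel, measured 42.6 and 46.6 CPM with DMSO, 37.6 and 32.6 with CCF642 and 49.5 and 46.0 with CCF642-34. It was lower than DMSO with CCF642 (-0.34, limma adjusted p = 0.000158), its CCF642-34 libraries overlapped DMSO (0.10, adjusted p = 0.281), and the compounds differed by 0.44 (adjusted p = 1.3e-05). For MRPS23 the difference was 0.40 (limma adjusted p = 0.000339), and for MRPL11 it was 0.36 (adjusted p = 8.81e-05). For MRPL21 it was 0.36 (limma adjusted p = 0.000804), and without the second CCF642 library it was 0.22 and did not pass the test.

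MRPS36, the dehydrogenase adaptor, measured 11.9 and 12.2 CPM with DMSO, 9.90 and 10.8 with CCF642 and 13.99 and 14.6 with CCF642-34. Its CCF642 libraries lay below and its CCF642-34 libraries above DMSO, yet neither difference from DMSO passed the test (-0.20 with adjusted p = 0.135 and 0.23 with adjusted p = 0.0901, limma), whereas the compounds differed by 0.43 (adjusted p = 0.00357). MRPS2, a small subunit protein with a bacterial counterpart, went the other way, at 29.5 and 31.3 CPM with DMSO, 33.6 and 31.6 with CCF642 and 28.7 and 26.7 with CCF642-34. The compounds differed by -0.23 (limma adjusted p = 0.0306), and the call was lost without the first CCF642 library (-0.19), without the second CCF642-34 library (-0.18) and under scaling by library size (-0.19).

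MRPL37, with the highest CPM of the genes, measured 188 and 183 CPM with DMSO, 169 and 173 with CCF642 and 191 and 187 with CCF642-34. The compounds differed by 0.15 (SE 0.046, limma adjusted p = 0.0114), and without the first CCF642-34 library this was 0.13 and did not pass. MRPS34, which the small subunit needs for stability, measured 146 and 157 with DMSO, 127 and 115 with CCF642 and 147 and 136 with CCF642-34, a difference between the compounds of 0.23 (limma adjusted p = 0.000666) that fell to 0.17 and did not pass without the first CCF642-34 library.

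Of the 46 genes that were not called, the intervals bound how far the compounds can differ. The difference was 0.00 for MRPL17 (95% interval -0.18 to 0.18), -0.02 for MRPS25 (-0.15 to 0.10) and 0.06 for MRPL2 (-0.09 to 0.21). MRPL16 (0.16, interval 0.02 to 0.30, limma adjusted p = 0.0619) and MRPL51 (0.19, 0.04 to 0.34, adjusted p = 0.0511) fell just short of the threshold. MRPL18 (-0.14, -0.28 to 0.01) and MRPS30 (-0.12, -0.24 to 0.01) were the lowest of these, and their CCF642-34 libraries lay below those of CCF642.

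The subunits and the origin of the proteins were then compared by counts and medians, without a test between them. In the large subunit, 21 of 50 genes (42%) were lower and 13 (26%) higher with CCF642 (median -0.09). In the small subunit 12 of 24 (50%) were lower and 1 (4.17%) was higher (median -0.18), beside 31.3% lower and 31.8% higher of all genes. With CCF642-34 these counts were 9 lower and 17 higher (median 0.08) and 6 lower and 3 higher (median -0.02), and under scaling by library size alone they were 13 lower and 12 higher (median -0.01) and 10 lower and 1 higher (median -0.10). With CCF642 that scaling gave 27 lower and 9 higher large subunit genes. In the TMM-scaled fit with CCF642-34, 18% of the large subunit genes were lower and 34% higher, and 25% and 12.5% of the small subunit. Of all genes, 27.9% were lower and 29.7% higher. In the direct comparison, where 15.9% of all genes were higher and 17.4% lower, 18 large subunit genes (36%) were higher and 0 lower (median 0.13). Of the small subunit, 9 genes (37.5%) were higher and 1 was lower (median 0.18). These counts depended on single libraries: without the first or the second CCF642-34 library, 9 or 10 large subunit genes and 5 or 6 small subunit genes were higher. After a correction for length and GC content, 9 large subunit genes were higher and 2 lower, beside 8 and 1 of the small subunit.

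Among the 29 large subunit genes with bacterial counterparts, 18 were lower (62.1%) and 6 higher (20.7%) with CCF642 (median -0.17). Of all genes, 31.3% were lower and 31.8% higher. The 20 mitochondria-specific genes of the large subunit showed 3 lower (15%) and 6 higher (30%, near the share of all genes), with a median of 0.04. Under scaling by library size alone these became 7 lower and 3 higher (median -0.09). The 6 that rose were MRPS18A, MRPS30, MRPL38, MRPL45, MRPL49 and MRPL52, the last 4 of them named after their values were seen. MRPS18A was classed as mitochondria specific, although it belongs to the S18 family, whose small subunit member MRPS18C was classed with the bacterial counterparts. In the small subunit the order was not the same: 6 of 9 mitochondria-specific genes (66.7%) were lower with CCF642 (median -0.33), among them MRPS23, MRPS25 and MRPS34. Of 14 with bacterial counterparts, 5 were lower (median -0.09), and this share of 35.7% lay near that of all genes. Under scaling by library size alone the order of these shares turned, with 6 of 9 and 10 of 14 lower, while the medians kept theirs (-0.46 and -0.22). MRPL55, of the large subunit, and MRPS28, of the small one, were left out of this division.

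Mitochondrial ribosomal mRNAs are short, and short transcripts differed between the compounds as a whole. The median transcript length was 1147 bases for the 75 genes and 2589.5 bases for all genes (GENCODE release 29, matched by symbol). Over 11016 genes, length and the direct log2 difference had a Spearman correlation of -0.27, which is a description across genes that share the same 6 libraries. Within the 75 genes it was -0.13. In the decile of the shortest transcripts, the median direct difference was 0.13 over all 1101 genes and 0.16 over the 34 mitochondrial ribosomal genes, and in the next decile it was 0.08 and 0.15 over 20. In the decile of the longest transcripts it was -0.11.

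After a correction of every library for length and GC content, 18 of the ribosomal genes were higher and 3 lower in the direct comparison, with a median of 0.09. The same correction left 34 lower and 14 higher with CCF642 (median -0.13), and it turned the median with CCF642-34 to -0.05, with 22 lower and 16 higher. Against DMSO, the shortest decile of all genes had a median of -0.04 with CCF642, whereas the 34 ribosomal genes in it had -0.16.

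**Figure D4:**
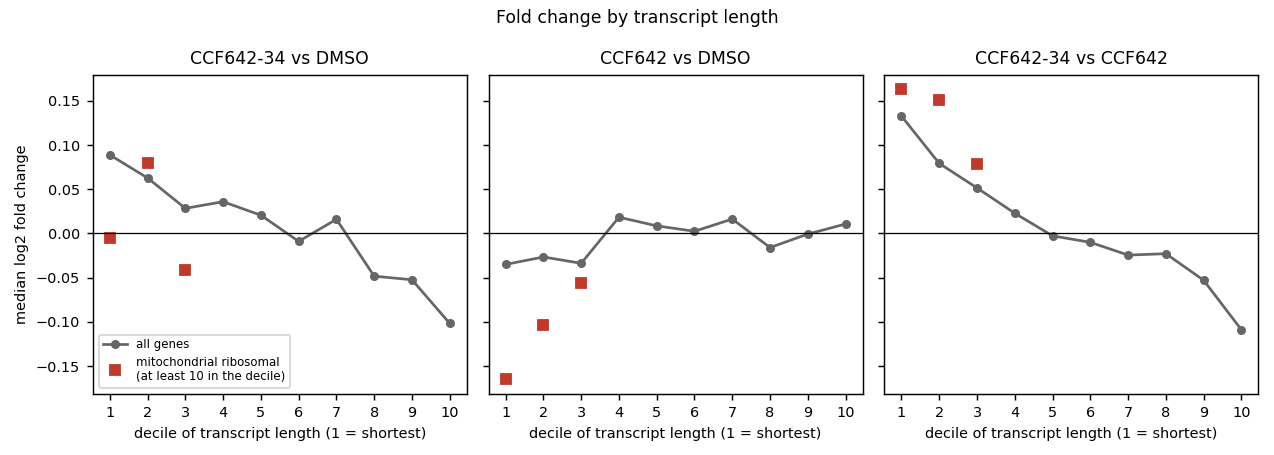
Median log2 fold change (vertical axis) in each decile of transcript length (horizontal axis, 1 for the shortest), for all genes (grey circles) and for the mitochondrial ribosomal genes in deciles with at least 10 of them (red squares), in 3 panels by comparison. In the direct comparison the line for all genes falls from 0.13 to -0.11, and with CCF642 the red squares of the 2 shortest deciles (-0.16 and -0.10) lie below the grey ones (-0.04 and -0.03).

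The ribosomal proteins that lack an MRP symbol moved each on its own. DAP3, a GTP-binding protein of the small subunit, rose from 184 and 184 CPM to 236 and 232 with CCF642 (log2 fold change 0.34, limma adjusted p = 2.91e-09) and to 250.3 and 256 with CCF642-34 (0.46, adjusted p = 1.26e-12). PTCD3, a pentatricopeptide protein of the small subunit, fell from 179.6 and 175 to 153 and 149 with CCF642 (-0.23, limma adjusted p = 3.54e-05) and to 132 and 136 with CCF642-34 (-0.40, adjusted p = 6.81e-10). CHCHD1 measured 34.6 and 34.9 with DMSO, 28.5 and 23.2 with CCF642 (-0.42, limma adjusted p = 4.99e-05) and 37.0 and 33.3 with CCF642-34 (0.01, adjusted p = 0.913). GADD45GIP1 rose with CCF642-34 (0.21, limma adjusted p = 0.0022) and gave 0.08 with CCF642, and AURKAIP1 gave 0.01 and -0.08, which did not pass.

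Of 17 factors of mitochondrial translation, CCF642 lowered 3 and raised 3, and CCF642-34 lowered 3 and raised 5. The falling share, 17.6% with each compound, lay below that of all genes (31.3% and 27.9%). The rising share was 17.6% with CCF642, below the 31.8% of all genes, and 29.4% with CCF642-34, near their 29.7%. Those that fell with CCF642 were MTFMT, which formylates the initiator tRNA (log2 fold change -0.69, limma adjusted p = 1.15e-05), the elongation factor GFM1 (-0.39, adjusted p = 3.36e-09) and the nucleotide exchange factor TSFM (-0.36, adjusted p = 2.11e-05). C12orf65, which rescues stalled ribosomes, rose by 0.44 (limma adjusted p = 0.000236), and the release factor MTRF1L rose by 0.42 (adjusted p = 8.34e-05). Under scaling by library size alone the counts were 8 lower and 2 higher with CCF642, and 6 lower and 0 higher with CCF642-34. In the direct comparison 1 factor was higher (5.88%) and 0 were lower, both below the shares of all genes (15.9% and 17.4%).

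Of 25 assembly factors of the mitochondrial ribosome, 8 fell and 3 rose with CCF642, whereas 7 fell and 6 rose with CCF642-34. The falling shares (32% and 28%) lay near those of all genes (31.3% and 27.9%), and the rising shares (12% and 24%) lay below them (31.8% and 29.7%). Under scaling by library size alone 14 fell and 2 rose, and 10 fell and 3 rose. MRM1, which methylates ribosomal RNA of the large subunit, measured 8.17 and 6.57 CPM with DMSO, 2.32 and 2.04 with CCF642 and 3.45 and 3.81 with CCF642-34. The log2 fold change was -1.39 with CCF642 (limma adjusted p = 1.03e-09), past 2-fold, and -0.85 with CCF642-34 (adjusted p = 3.4e-05). NSUN4, which methylates ribosomal RNA of the small subunit, went the other way, from 36.6 and 37.6 CPM to 62.2 and 60.6 with CCF642 (0.71, limma adjusted p = 5.49e-13) and to 58.9 and 57.9 with CCF642-34 (0.64, adjusted p = 1.9e-11). GTPBP10, a GTPase of large subunit assembly, rose by 0.60 with CCF642 (limma adjusted p = 9.16e-11), and RBFA, a small subunit factor, gave -0.61 (adjusted p = 1.17e-07). MTERF3 gave -0.56 with CCF642 (limma adjusted p = 0.000254) and -0.45 with CCF642-34 (adjusted p = 0.00338).

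Of 10 genes for mitochondrial DNA maintenance and transcription, 6 were lower with CCF642 and 6 with CCF642-34 (60% each), and 1 and 0 were higher. Over all genes 31.3% and 27.9% were lower with these compounds, and 31.8% and 29.7% higher. Under scaling by library size alone 8 and 9 of the 10 were lower and 0 were higher. TFAM, which packages mitochondrial DNA and starts its transcription, measured 104 and 105 CPM with DMSO, 72.2 and 71.0 with CCF642 (log2 fold change -0.54, limma adjusted p = 1.6e-11) and 76.3 and 77.2 with CCF642-34 (-0.44, adjusted p = 5.21e-09). MGME1 gave -0.67 with CCF642 (limma adjusted p = 9.68e-09) and -0.37 with CCF642-34 (adjusted p = 0.000527). With CCF642-34, TEFM gave -0.49 (limma adjusted p = 0.000466) and MTERF1 gave -0.44 (adjusted p = 0.00161), and neither passed with CCF642. POLG was the gene called higher with CCF642 (0.11, limma adjusted p = 0.0482), and it gave -0.11 with CCF642-34 (adjusted p = 0.05545). Among 12 regulators of mitochondrial biogenesis, 3 rose and 3 fell with CCF642, while 3 rose and 6 fell with CCF642-34. The shares with CCF642 (25% each) lay below those of all genes, and with CCF642-34 25% rose and 50% fell. The coactivator PPARGC1A rose from 54.0 and 53.0 CPM to 128 and 145 with CCF642 (1.33, limma adjusted p = 4.3e-25) and to 112 and 119 with CCF642-34 (1.10, adjusted p = 1.4e-21). PPARGC1B went the other way, from 31.1 and 31.7 CPM to 15.5 and 13.8 with CCF642 (-1.05, limma adjusted p = 5.81e-13). With CCF642-34 it measured 16.1 and 17.7 CPM (-0.86, limma adjusted p = 2.89e-10). MYC, whose product drives many genes of ribosomes and mitochondria, fell from 429 and 442 CPM to 103 and 108 with CCF642 (-2.04, limma adjusted p = 2.37e-37) and to 183 and 182 with CCF642-34 (-1.25, adjusted p = 2.76e-28). For the factors whose letters were searched in the promoters, NRF1 gave 0.14 and 0.02 (limma adjusted p = 0.134 and 0.82), and GABPA gave -0.09 with CCF642 (adjusted p = 0.255) and -0.22 with CCF642-34 (adjusted p = 0.00524). GABPB1, the partner of GABPA, rose by 0.40 with CCF642 (limma adjusted p = 9.21e-07) and by 0.24 with CCF642-34 (adjusted p = 0.00133). YY1 gave 0.08 and 0.01 (limma adjusted p = 0.217 and 0.887). CREB1, which binds the cyclic AMP response element, rose by 0.32 with CCF642 (limma adjusted p = 3.28e-06) and by 0.26 with CCF642-34 (adjusted p = 8.41e-05).

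The mitochondrial ribosome was last set beside the cytosolic ribosome and the respiratory chain. Over all genes 31.8% were higher and 31.3% lower with CCF642, and 29.7% and 27.9% with CCF642-34. In the direct comparison 15.9% were higher and 17.4% lower. Of 81 genes of cytosolic ribosomal proteins, 37 rose and 8 fell with CCF642 (median 0.09), but 12 rose and 30 fell under scaling by library size alone (median -0.05). With CCF642-34, 67 were higher and 3 lower (median 0.21), and 51 and 6 under scaling by library size alone. In the direct comparison 49 of the cytosolic ribosomal genes were higher and 1 was lower (median 0.11). Fewer were called higher when the first (median 0.10) or the second (median 0.14) CCF642-34 library was left out. After the correction for length and GC content, 15 were higher and 6 lower (median 0.03). Nuclear genes of the respiratory chain showed 38 lower and 3 higher of 62 with CCF642 (median -0.22), 12 lower and 10 higher with CCF642-34 (median 0.02; 21 lower and 5 higher under scaling by library size alone), and 48 higher and 0 lower in the direct comparison (median 0.22). The respiratory chain counts for the direct comparison were 34 higher and 0 lower after the correction for length and GC content, and 27 higher and 0 lower without the first CCF642-34 library. No test of a difference between these groups of genes was made.

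**Figure D5:**
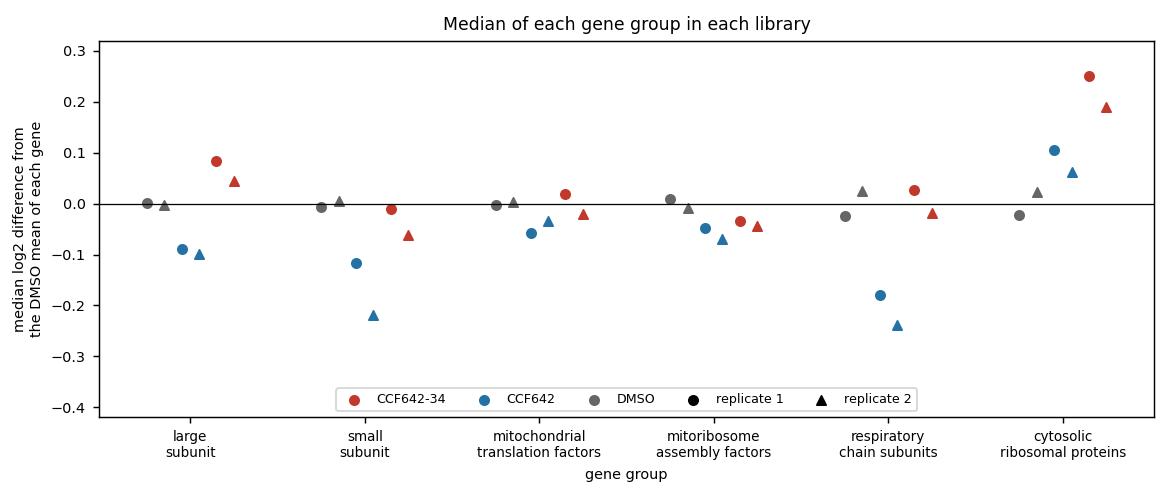
Median log2 difference from the DMSO mean of each gene (vertical axis) for 6 groups of genes (horizontal axis) in each of the 6 libraries, with circles for the first and triangles for the second library of a group. Both CCF642 libraries of the large subunit (-0.09 and -0.10) and of the small subunit (-0.12 and -0.22) lie below 0, and those of CCF642-34 (0.08 and 0.04, -0.01 and -0.06) lie above them.

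Reads of some of these genes may be shared with other loci. In GENCODE release 29, 33 of the 75 genes overlap exons of another gene, 26 of them exons of a protein-coding gene, and 33 have a pseudogene named after them. Of the genes named above, MRPL2, MRPL34, MRPL37, MRPL51, MRPS2, MRPS18A, MRPS18C, MRPS22 and MRPS25 overlap a gene on the opposite strand, as MRPL49 does with FAU and SYVN1. MRPL12, MRPS17 and MRPS28 overlap a gene on the same strand, and MRPL20 and MRPL38 overlap genes on both strands. Whether counting used the strand is not given in the sources used here, so these values are uncertain to the extent that such reads were shared.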

How the data were processed

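Polyadenylated RNA of MM1.S cells was sequenced in 6 libraries, 2 per group, grouped by the treatment in the labels. The authors deposited CPM values for 11048 symbols per library, and every value (100%) was a whole multiple of the share of 1 read within 0.001 reads, so that reads could be recovered. The submitters' processing notes name STAR, edgeR 3.24.3, limma 3.38.3 and hg19. Annotation, filters and strand use are not given in the sources used here. The design allowed for counts or CPM. CPM were divided by TMM factors (edgeR 4.0.16), a pseudocount of 1 was added, and log2 values of all 3 groups were fitted with limma 3.58.1 (R 4.3.3; trended prior, no replicate block, 3 residual and 42.9 prior degrees of freedom). Tests were two-sided, with Benjamini-Hochberg adjustment over all 11048 genes within each of the 3 comparisons, 1 of them between the compounds. No adjustment was made across the comparisons. The fit was tested on simulated data.

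The genes, lists and tests were chosen with earlier results of these data known. Named genes were the 6 largest called changes in each direction and comparison, the 3 highest and lowest CPM, stalk and S18 proteins, MRPS36, and from each list the 2 largest called changes in each direction with each compound. Motif letters, markers and other lists were written by hand, and the 13 mitochondrially encoded genes were not analysed here. Respiratory chain and cytosolic ribosomal genes were taken by symbol. Length, GC content and overlaps came from GENCODE release 29 (GRCh38), which held 11016 of the symbols and was matched by symbol only. Length and GC content were medians over the annotated transcripts of a gene. Promoters came from RefSeq (GRCh38.p14). Alternatives were other scalings, pseudocounts, a CPM minimum, edgeR, DESeq2 1.42.0 and limma-voom on recovered reads, a replicate block, the 2 compared groups alone, single libraries left out and, chosen after seeing the data, a correction for length and GC content by splines.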

Additional observations from a re-analysis of the deposited data

How the results depend on the processing

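Of the 49 calls on named genes, 37 held under every alternative, 12 were lost under at least 1, and 0 changed sign. Scaling by library size alone shifted the median of all genes to -0.08 (CCF642-34 against DMSO), -0.13 (CCF642 against DMSO) and 0.05 (CCF642-34 against CCF642). Under it the mitochondrial ribosomal genes gave 13 higher, 23 lower and a median of -0.062 with CCF642-34, a median of -0.25 with CCF642, and 0 lower with a median of 0.19 in the direct comparison. The DESeq2 test on recovered reads kept 19 of the 29 calls in the direct comparison, where it gave 0 lower. It kept 28 of the 35 calls with CCF642-34 and 43 of the 47 with CCF642. The correction for length and GC content, chosen after seeing the data, gave a median of -0.047 with CCF642-34, and 18 higher, 3 lower and a median of 0.086 in the direct comparison. Leaving out 1 library at a time gave 15 to 24 higher, 9 to 16 lower and a median of 0.013 to 0.069 with CCF642-34, 12 to 15 higher, 23 to 33 lower and a median of -0.13 to -0.11 with CCF642, and 15 to 29 higher, 0 to 2 lower and a median of 0.13 to 0.15 in the direct comparison. With the replicate block, counts were 20 higher and 16 lower with CCF642-34, 14 and 33 with CCF642, and 30 and 1 in the direct comparison, and every call of the fit without it held. The labels give replicate numbers only, the deviations of same-numbered libraries had correlations of -0.01, -0.06 and 0.05, and the numbers were not taken to pair the libraries. Replicates differed beyond counting noise. Pseudocounts, DESeq2's size factors, the CPM minimum, edgeR and limma-voom moved no count of these genes by over 1.5 times. Fits that left out a library assumed that the lone library of a group varies like the others. With 2 libraries per group, no outlier test was possible.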
